A study of Mus musculus with 12 samples.

Results

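The 39 genes described here encode the digestive enzymes, membrane proteins and proton pump of the lysosome. They comprise 2 storage and maturation factors, 10 proteases, 8 glycosidases, 5 genes of lipid handling, 8 membrane proteins and 6 subunits or accessory proteins of the vacuolar proton pump. They were taken by gene symbol from 54532 genes in the count files, and all 39 passed the low-count filter that left 14324 genes for testing. The choice was made with values of these data in view: Psap, Gpnmb and Ctsb had been seen to be lower in LPS-treated cells of succinate mice than in LPS-treated cells of control mice, and the other members share a lysosomal function. The succinate difference under LPS is therefore given below as a description, and the number of members called in it is printed without being read as a result.

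RNA was sequenced from mouse bone marrow monocytes sorted as CD11b+ and Ly6C-high cells. The 4 groups of 3 libraries were monocytes of mice given 300 mM succinate for 7 days and then treated with LPS in culture for 4 h, monocytes of control mice with the same LPS treatment, unstimulated monocytes of succinate mice and unstimulated monocytes of control mice. LPS (lipopolysaccharide) is a bacterial cell wall component that activates Toll-like receptor 4. The labels name no strain, age or sex of the mice and do not tie a library to its own animal. The p-values thus reflect the spread between the sequenced samples alone, which could be technical. Total counts ran from 15975882 to 18306747 per library.

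Lysosomes break down proteins, glycans and lipids taken up from outside the cell or delivered by autophagy. Their enzymes work at acid pH, which the vacuolar ATPase (V-ATPase) maintains: its soluble V1 part hydrolyses ATP and its membrane V0 part moves protons into the lumen. Monocytes and macrophages are rich in lysosomes, which digest engulfed microbes and cut antigens for presentation. Many lysosomal genes carry a short DNA motif bound by transcription factors of the MiT/TFE family, of which TFEB is the best known.

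Markers of the sorted cell type were present in the libraries, and so were neutrophil and granule markers, at sums of similar size. Ly6c2, which encodes the sort marker, and Itgam, which encodes CD11b, were present in every library. The 12 monocyte markers summed to 6262 to 8788 CPM in LPS cells of succinate mice, 8710 to 9732 in LPS cells of control mice, 7321 to 10306 in unstimulated cells of succinate mice and 10617 to 11185 in unstimulated cells of control mice. Of these markers, Lyz2 alone averaged 5858 CPM in unstimulated cells of control mice. CPM values were computed after trimmed-mean scaling of the library totals. The 12 neutrophil and granule markers summed to 10776 to 11741, 8920 to 12608, 6981 to 8311 and 7497 to 9610 CPM in the same order of groups. Of 10 macrophage markers, C1qa, C1qb, C1qc, Mertk and Timd4 stayed below 1 CPM in every library. The others were detected. In unstimulated cells of control mice Adgre1, Vcam1 and Spic averaged 112, 121 and 30.4 CPM, and Cd163 and Mrc1 1.22 and 2.11 CPM. The libraries also fell into 2 classes by 5 genes, among them S100a4 and Rpl24, whose mean log2 CPM was 3.14 to 4.06 in control LPS replicate 3 and in unstimulated replicates 2 and 3 of both kinds of mice, against 0.83 to 1.44 in the other 7 libraries. All 3 libraries of LPS cells of succinate mice were in the lower class.

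The lysosomal genes took up a smaller part of the RNA in LPS-treated cells. Together they held 1.22, 1.42 and 1.56% of all counts in LPS cells of succinate mice, 2.2, 1.84 and 1.75% in LPS cells of control mice, 3.4, 2.74 and 3.74% in unstimulated cells of succinate mice and 3.98, 3.87 and 4.25% in unstimulated cells of control mice. Every LPS library lay below every unstimulated library, and every LPS library of succinate mice lay below every LPS library of control mice. Among the unstimulated libraries, those of succinate mice lay below those of control mice as well, although the highest of the first reached 3.74% and the lowest of the second was 3.87%. Psap alone, the precursor of the saposins that activate sphingolipid hydrolases, made up a large part of this. Without Psap the mean share was 1.18 ± 0.139% in LPS cells of succinate mice, 1.57 ± 0.17% in LPS cells of control mice, 2.45 ± 0.35% in unstimulated cells of succinate mice and 2.97 ± 0.131% in unstimulated cells of control mice (SD, n = 3 each), in the same order as before. Gpnmb and Ctsb, which were noted together with Psap, stay in this sum. The order of the LPS groups in it is therefore a description. In bulk RNA, fewer cells of a type and less RNA per cell cannot be told apart.

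**Figure D1:**
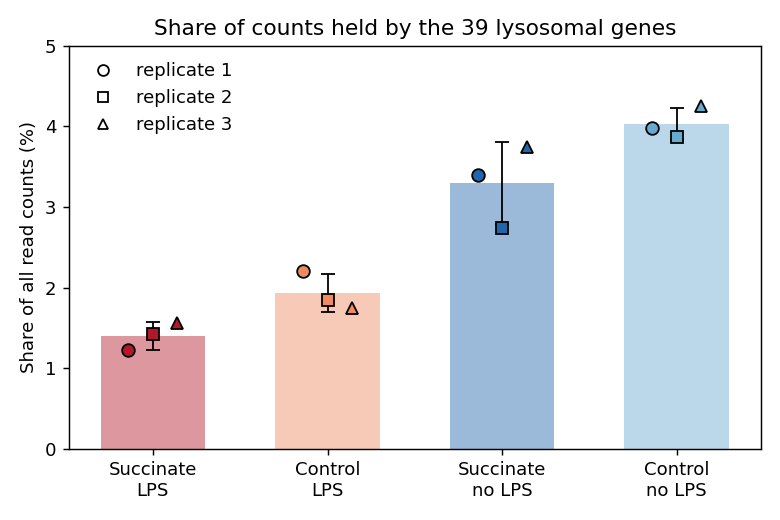
Share of all read counts (%) held by the 39 lysosomal genes, by group. Bars are means of 3 libraries, error bars are SD and points are single libraries. The share was 1.22 to 1.56% in LPS cells of succinate mice and 3.87 to 4.25% in unstimulated cells of control mice, the lowest and the highest group.

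Several members were among the most abundant messages of these cells. Ranked by CPM per kilobase of exon among 14319 genes, Psap was 4th in unstimulated cells of control mice, with 3875 CPM per kilobase. Gpnmb, a membrane glycoprotein of macrophage and melanocyte lysosomes, was 15th, and the cathepsins Ctss and Ctsb were 28th and 31st. At the other end, the proton pump subunit Atp6v0d2 had 3.04 CPM per kilobase and the cation channel Mcoln3 had 4.08. In LPS cells of succinate mice Psap ranked 33rd, Ctsb 102nd and Gpnmb 201st, and in LPS cells of control mice they ranked 17th, 57th and 84th.

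The comparison of LPS-treated with unstimulated cells asked how the lysosomal genes moved during the inflammatory response, separately in the 2 kinds of mice. In succinate mice 32 of the 39 genes fell (82.1%), 1 rose and 6 did not pass edgeR's quasi-likelihood test at an adjusted p below 0.05, while 30.2% of all 14324 genes were called, 16.2% lower and 14.1% higher. In control mice 29 fell (74.4%), 1 rose and 9 did not pass, against 30.1% of all genes called, 14.8% lower and 15.3% higher. The counts by role below are to be read beside these shares of all genes. The members' median log2 fold change was -0.82 in succinate mice and -0.73 in control mice, beside -0.017 and -0.004 for all tested genes. In succinate mice the LPS libraries lay wholly below the unstimulated ones for 31 members, wholly above for 1 and overlapped for 7. Over all genes 41.4% did not overlap, 21.5% lying below and 19.9% above. In control mice 35 lay wholly below, 2 wholly above and 2 overlapped, while 45.5% of all genes did not overlap, 23.2% lying below and 22.3% above. The succinate comparison under LPS shares libraries with both of these contrasts. Psap, Gpnmb and Ctsb were chosen for low values in LPS cells of succinate mice. Their LPS results, above all in succinate mice, are therefore not independent of that choice. The sums of the 10 macrophage markers, at 830 to 1031 CPM in LPS cells of succinate mice and 1012 to 1100 CPM in LPS cells of control mice, were above the 191 to 239 and 247 to 289 CPM of the unstimulated cells of the same mice. Vcam1 and Spic carried this: they were the 2 of 5 tested macrophage markers that rose, and Adgre1, Cd163 and Mrc1 did not pass. The 8 dendritic cell markers summed to 43.1 to 60.7 CPM in LPS cells and 14.1 to 20.8 CPM in unstimulated cells of succinate mice, and to 51.6 to 65.3 and 12.8 to 14.9 CPM in control mice, with 3 and 4 of 7 tested called higher. The neutrophil sums given above did not overlap in succinate mice and did in control mice. Of the 12 monocyte markers, 5 fell and 2 rose in succinate mice, and 6 fell and 2 rose in control mice. Their median log2 fold changes were -0.65 and -0.79. The part of any of these markers in the results was not tested.

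Both storage and maturation factors fell. Psap (chr10:60277627-60302597, plus strand, GRCm38) had 1696, 2334 and 2443 CPM in LPS cells of succinate mice, 4734, 3505 and 3291 CPM in LPS cells of control mice, 8229, 6560 and 9847 CPM in unstimulated cells of succinate mice and 10050, 10270 and 11579 CPM in unstimulated cells of control mice. None of the 4 groups overlapped, but the order of the 2 LPS groups is a description, since Psap was chosen for it. The log2 fold change with LPS was -1.93 ± 0.19 in succinate mice (SE, adjusted p = 1.73e-06) and -1.47 ± 0.18 in control mice (adjusted p = 2.08e-05). Grn encodes progranulin, which is cut into granulins inside lysosomes. It averaged 410 ± 58 CPM in LPS cells of succinate mice, 607 ± 56.7 CPM in LPS cells of control mice, 1227 ± 225 CPM in unstimulated cells of succinate mice and 1448 ± 190 CPM in unstimulated cells of control mice (SD, n = 3 each), with changes of -1.58 ± 0.16 in succinate mice and -1.25 ± 0.15 in control mice.

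The proteases did not all move the same way. Of 10, 7 fell and 1 rose in succinate mice, and 6 fell and 1 rose in control mice. Lgmn, the asparaginyl endopeptidase that trims cathepsins, had 119, 214 and 227 CPM in LPS cells of succinate mice, 365, 299 and 338 CPM in LPS cells of control mice, 989, 642 and 1261 CPM in unstimulated cells of succinate mice and 1231, 1246 and 1428 CPM in unstimulated cells of control mice. The LPS and unstimulated libraries stood far apart, with log2 fold changes of -2.37 ± 0.25 in succinate mice (adjusted p = 3.25e-06) and -1.96 ± 0.24 in control mice (adjusted p = 1.68e-05). The cysteine protease Ctsl, which degrades proteins within the lysosome, fell in both. Its libraries held 75.9, 65 and 66.1 CPM in LPS cells of succinate mice, 66.8, 61.6 and 58.6 CPM in LPS cells of control mice, 217, 154 and 178 CPM in unstimulated cells of succinate mice and 205, 178 and 183 CPM in unstimulated cells of control mice. The change was -1.41 ± 0.13 in succinate mice (adjusted p = 9.72e-07) and -1.60 ± 0.13 in control mice (adjusted p = 2.79e-07).

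Ctss, which cuts the invariant chain of MHC class II, fell by 1.57 on the log2 scale in succinate mice and by 1.30 in control mice. The aspartic protease Ctsd fell by 0.82 and 0.87 in the same order, and Ctsa, the carboxypeptidase that also protects beta-galactosidase and neuraminidase, fell by 1.30 and 0.94. Ctsb (chr14:63122462-63145923, plus strand) had 1713, 2231 and 2475 CPM in LPS cells of succinate mice, 3988, 3227 and 3101 CPM in LPS cells of control mice, 4591, 3281 and 3981 CPM in unstimulated cells of succinate mice and 4890, 4556 and 4974 CPM in unstimulated cells of control mice. The first of these groups lay below all the others, which is a description, since Ctsb was chosen for its low values there. The LPS cells of control mice overlapped the unstimulated cells of succinate mice, and the unstimulated groups overlapped each other. Its change was -0.88 ± 0.16 in succinate mice (adjusted p = 0.000567) and -0.48 ± 0.16 in control mice (adjusted p = 0.0306). The call in control mice was lost without any one of the 3 unstimulated control libraries, or without control LPS replicate 2 or 3, at -0.39 to -0.50. The tripeptidyl peptidase Tpp1 fell in succinate mice (-0.58 ± 0.15, adjusted p = 0.00946) and had -0.33 ± 0.15 in control mice, where it did not pass (adjusted p = 0.125).

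Ctsc was the member that rose. This dipeptidyl peptidase (chr7:88278085-88310888, plus strand) activates the serine proteases of granules. It had 198, 236 and 258 CPM in LPS cells of succinate mice, 237, 183 and 235 CPM in LPS cells of control mice, 163, 141 and 135 CPM in unstimulated cells of succinate mice and 127, 133 and 135 CPM in unstimulated cells of control mice. Each LPS group lay above its unstimulated group, with log2 fold changes of 0.65 ± 0.13 in succinate mice (adjusted p = 0.00125) and 0.73 ± 0.13 in control mice (adjusted p = 0.000481). The carboxypeptidase cathepsin Ctsz did not pass in either, at 0.13 ± 0.13 in succinate mice (adjusted p = 0.53) and 0.33 ± 0.13 in control mice (adjusted p = 0.0825), and the aminopeptidase Ctsh had -0.37 ± 0.15 and -0.30 ± 0.15 in the same order (adjusted p = 0.0822 and 0.168).

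**Figure D2:**
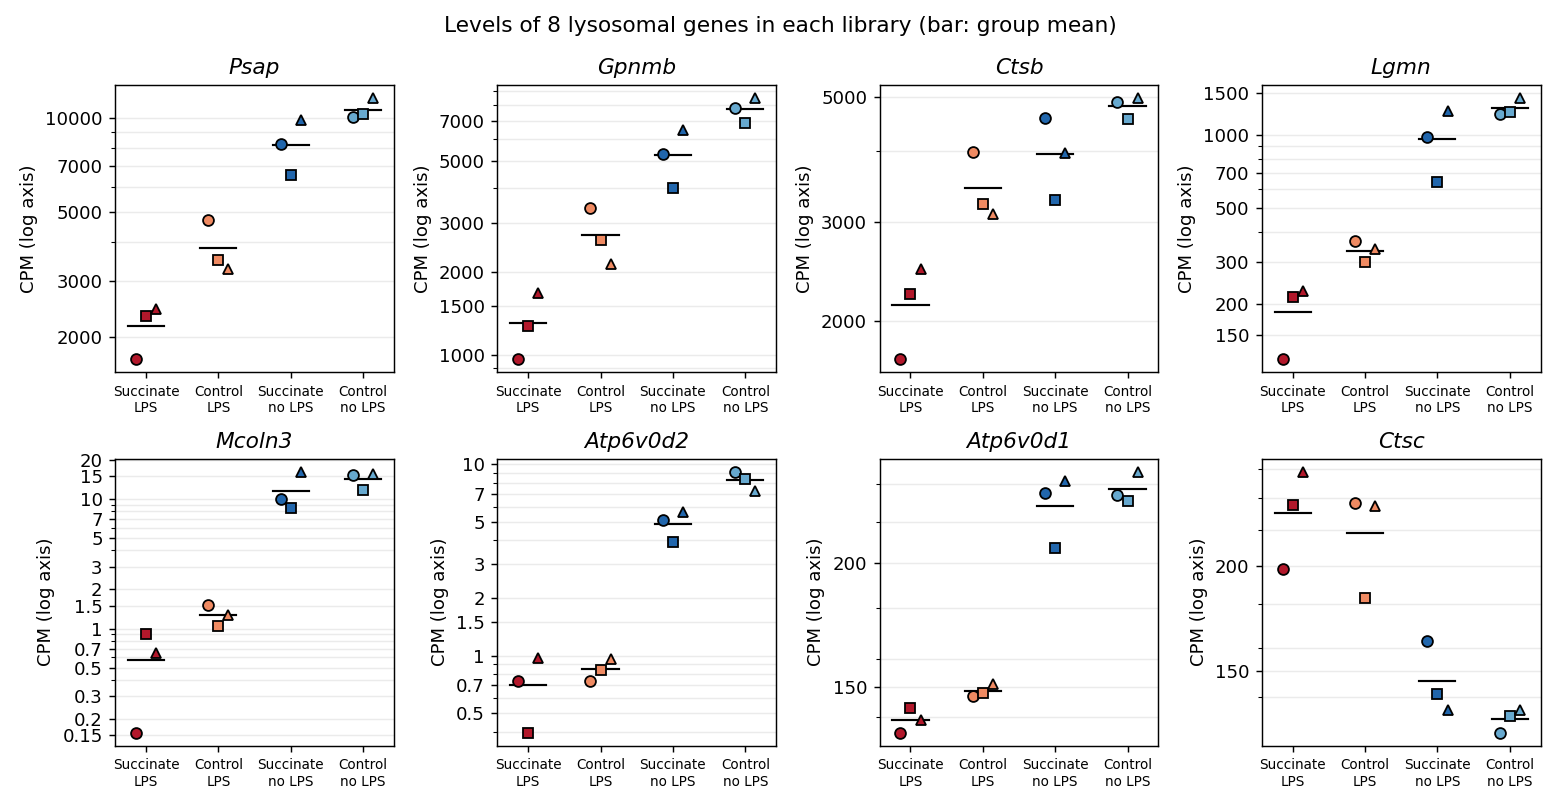
Levels of 8 lysosomal genes in each library (CPM, log axes with a separate range for each gene). Points are libraries, with circles, squares and triangles for replicates 1, 2 and 3, and bars are group means. In 7 of the genes both LPS groups sit below both unstimulated groups in their means, and Ctsc sits above. Mcoln3 and Atp6v0d2 have means of at most 1.28 CPM with LPS.

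Among the 8 glycosidases, 6 fell in each kind of mouse and none rose. The largest change was that of Naglu, which removes N-acetylglucosamine from heparan sulfate. It had 15, 16.9 and 22 CPM in LPS cells of succinate mice, 30.7, 25.1 and 24.3 CPM in LPS cells of control mice, 50.8, 42.6 and 79.5 CPM in unstimulated cells of succinate mice and 70, 69.1 and 83.6 CPM in unstimulated cells of control mice. Its log2 fold change was -1.68 ± 0.21 in succinate mice (adjusted p = 2.04e-05) and -1.47 ± 0.21 in control mice (adjusted p = 6.05e-05). The alpha-galactosidase Gla, which removes terminal galactose from glycolipids, changed by -1.34 ± 0.12 in succinate mice and -1.02 ± 0.12 in control mice, and its LPS libraries held 89.8 to 125 CPM against 210 to 295 CPM in the unstimulated libraries. Hexa, the alpha subunit of beta-hexosaminidase, the alpha-mannosidase Man2b1 and the beta-glucuronidase Gusb fell by 0.88 to 1.11 in succinate mice and by 0.77 to 0.93 in control mice.

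The other glycosidases were close to the threshold or did not pass. Gaa, which degrades glycogen, fell in succinate mice (-0.55 ± 0.15, adjusted p = 0.0142) and had -0.37 ± 0.15 in control mice (adjusted p = 0.0849). Its call in succinate mice was lost at -0.40 without unstimulated succinate replicate 3, at -0.45 without succinate LPS replicate 1, and at -0.40 with the library class as a covariate. The beta-galactosidase Glb1 had -0.24 ± 0.12 in succinate mice (adjusted p = 0.148) and fell in control mice (-0.34 ± 0.12, adjusted p = 0.0447), a call that 11 of 21 alternative settings did not make. The sialidase Neu1 had -0.21 ± 0.10 and -0.19 ± 0.10 in succinate and control mice and passed in neither (adjusted p = 0.143 and 0.187).

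Of the 5 genes of lipid handling, 4 fell in each kind of mouse. Npc1, the membrane protein that passes cholesterol out of the lysosome, had 309, 342 and 310 CPM in LPS cells of succinate mice, 573, 443 and 470 CPM in LPS cells of control mice, 920, 1071 and 803 CPM in unstimulated cells of succinate mice and 855, 1011 and 930 CPM in unstimulated cells of control mice. The unstimulated groups overlapped and the LPS groups did not. With LPS it changed by -1.54 ± 0.13 in succinate mice (adjusted p = 5.57e-07) and by -0.91 ± 0.13 in control mice (adjusted p = 7.69e-05). Its soluble partner Npc2 fell by 0.96 in succinate mice and by 0.78 in control mice.

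Asah1, the acid ceramidase, fell by 0.56 in succinate mice and by 0.48 in control mice (adjusted p = 0.0128 and 0.0288). The first of these calls was lost without unstimulated succinate replicate 3 (-0.41), without succinate LPS replicate 1 (-0.43) and with only the groups compared in the fit (-0.55). The second was lost without any one of the 6 control libraries, at -0.40 to -0.52. Ppt1, which removes palmitate from proteins, changed by -0.39 ± 0.13 in succinate mice and by -0.73 ± 0.13 in control mice (adjusted p = 0.0355 and 0.000617), the first of these a call that 12 of the 21 alternative settings did not make. The acid lipase Lipa did not pass. Its 3 LPS libraries of control mice were spread from 277 to 793 CPM, and the log2 fold change was -0.62 ± 0.28 in succinate mice and -0.12 ± 0.28 in control mice (adjusted p = 0.111 and 0.798).

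Of the 8 membrane proteins, 7 fell in succinate mice and 6 in control mice. Mcoln3 (chr3:146117450-146141806, plus strand), an endolysosomal cation channel, had 0.157, 0.902 and 0.646 CPM in LPS cells of succinate mice, 1.52, 1.04 and 1.28 CPM in LPS cells of control mice, 9.93, 8.58 and 16.2 CPM in unstimulated cells of succinate mice and 15.2, 11.8 and 15.5 CPM in unstimulated cells of control mice. The log2 fold change was -4.34 ± 0.39 in succinate mice (adjusted p = 8.25e-07) and -3.45 ± 0.36 in control mice (adjusted p = 2.94e-06), the largest fall among the 39 members in each. Its relative Mcoln1, the main calcium and iron channel of lysosomes, fell by 0.58 in succinate mice (adjusted p = 0.00268) and had -0.30 ± 0.13 in control mice, which did not pass (adjusted p = 0.0852).

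Gpnmb (chr6:49036546-49070929, plus strand) had 967, 1268 and 1675 CPM in LPS cells of succinate mice, 3380, 2590 and 2132 CPM in LPS cells of control mice, 5313, 4023 and 6469 CPM in unstimulated cells of succinate mice and 7819, 6884 and 8468 CPM in unstimulated cells of control mice. The 4 groups did not overlap, but the order of the 2 LPS groups is a description, since Gpnmb was chosen for it. Its change with LPS was -2.02 ± 0.22 in succinate mice (adjusted p = 6.35e-06) and -1.52 ± 0.22 in control mice (adjusted p = 8.18e-05). Scarb2, also called LIMP-2, carries glucocerebrosidase to the lysosome and changed by -1.35 ± 0.12 in succinate mice and by -1.44 ± 0.12 in control mice, with 68.3 to 78.7 CPM in the LPS libraries against 170 to 220 CPM in the unstimulated ones.

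The coat glycoprotein Lamp1 fell by 0.73 in succinate mice and by 0.64 in control mice. Lamp2, its close relative that also serves autophagy, fell by 0.31 and 0.28 in the same order (adjusted p = 0.0356 and 0.0497), and each of these calls was lost in 13 of the 21 alternative settings. The tetraspanin Cd63 had -0.22 ± 0.13 in succinate mice (adjusted p = 0.218) and fell by 0.36 in control mice (adjusted p = 0.0495), a call that 11 settings did not make. Cd68, a heavily glycosylated protein used as a macrophage marker, had 139, 197 and 252 CPM in LPS cells of succinate mice, 401, 346 and 333 CPM in LPS cells of control mice, 326, 281 and 424 CPM in unstimulated cells of succinate mice and 456, 460 and 497 CPM in unstimulated cells of control mice. Its LPS libraries lay below the unstimulated ones in each kind of mouse. The change passed in succinate mice (-0.81 ± 0.19, adjusted p = 0.00397) but not in control mice (-0.39 ± 0.19, adjusted p = 0.135).

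The proton pump genes among the members fell with the rest, 6 of 6 in succinate mice and 5 of 6 in control mice. The 13 other tested V-ATPase subunits, given below, had medians of -0.22 and -0.06 in the same order. Of these, 3 and 2 were called lower, and 1 and 2 higher. Atp6v0d2 (chr4:19876841-19922605, minus strand), a form of the V0 subunit d known from osteoclasts and macrophages, had 0.732, 0.395 and 0.969 CPM in LPS cells of succinate mice, 0.732, 0.844 and 0.962 CPM in LPS cells of control mice, 5.11, 3.91 and 5.63 CPM in unstimulated cells of succinate mice and 9.14, 8.35 and 7.24 CPM in unstimulated cells of control mice. It changed by -2.79 ± 0.29 in succinate mice (adjusted p = 3.93e-06) and by -3.28 ± 0.29 in control mice (adjusted p = 6.78e-07). The widespread form Atp6v0d1 moved less, by -0.71 ± 0.09 in succinate mice and -0.67 ± 0.09 in control mice, with 135 to 151 CPM in the LPS libraries against 207 to 247 CPM in the unstimulated ones.

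Of the V1 subunits, the catalytic subunit A gene Atp6v1a changed by -1.05 ± 0.11 in succinate mice and -0.79 ± 0.11 in control mice (adjusted p = 4.47e-06 and 6.05e-05). Its partner subunit gene Atp6v1b2 fell by 0.70 and 0.42, and the accessory protein gene Atp6ap1 by 0.69 and 0.59, in succinate and control mice. The regulatory subunit gene Atp6v1h fell by 0.61 in succinate mice (adjusted p = 0.00408) and had -0.27 ± 0.14 in control mice (adjusted p = 0.173).

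**Figure D3:**
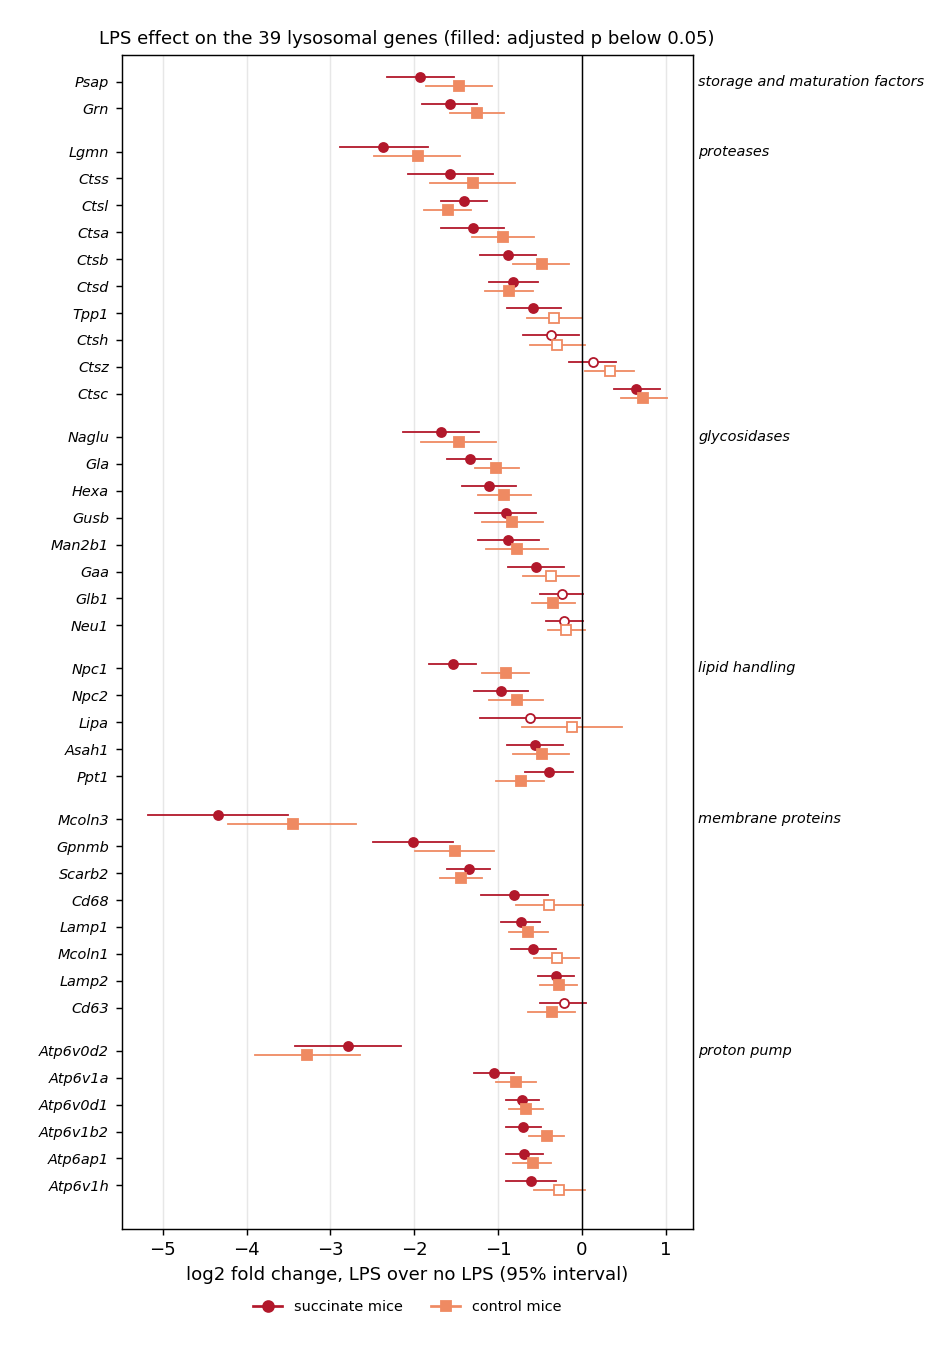
Log2 fold change of LPS-treated over unstimulated cells for the 39 lysosomal genes, grouped by role, in succinate mice and in control mice, with 95% intervals and filled symbols for calls at an adjusted p below 0.05. In both kinds of mice 37 of the 39 estimates are below 0, and Ctsc and Ctsz are above.

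Called genes largely coincided in the 2 kinds of mice, which were fitted in 1 model. A fall was called in both for 27 members, only in succinate mice for Tpp1, Gaa, Cd68, Mcoln1 and Atp6v1h, and only in control mice for Glb1 and Cd63. A test of the difference between the 2 LPS effects, the interaction, called none of the 39 and 0% of the 14324 genes, with 560 genes at an unadjusted p below 0.05 and none of the 39 called by DESeq2, so the 7 calls made in 1 kind of mouse are not shown to differ. The interaction estimates of the members ran from -0.89 to 0.49 with a median of -0.18, beside -0.026 for all genes. Because the interaction contains the succinate difference under LPS, these values are a description.

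Promoter sequence was examined because the members moved together with LPS and because of the MiT/TFE motif. RefSeq promoters of GRCm38.p6, each from 250 bases before to 50 bases after a transcription start, were found for 32 of the 39 genes, as 35 windows. Windows of 6 members with the motif core CACGTG are shown to make its placement visible, each as 100 bases from 100 bases before the start up to the base before it, except Gla, which begins 250 bases before the start. CACGTG is in capitals. The positions are chr8:13159061-13159160 on the plus strand for Lamp1, chr8:3500419-3500518 on the plus strand for Mcoln1, chr2:164833673-164833772 on the plus strand for Ctsa, chr12:102439093-102439192 on the minus strand for Lgmn, chr11:101069994-101070093 on the plus strand for Naglu and chrX:134601156-134601255 on the minus strand for Gla.
Lamp1: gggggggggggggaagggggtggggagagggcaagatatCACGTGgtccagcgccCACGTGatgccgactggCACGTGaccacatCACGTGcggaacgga
Mcoln1: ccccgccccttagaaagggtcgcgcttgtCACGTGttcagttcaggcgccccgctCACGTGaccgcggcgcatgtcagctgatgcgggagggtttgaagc
Ctsa: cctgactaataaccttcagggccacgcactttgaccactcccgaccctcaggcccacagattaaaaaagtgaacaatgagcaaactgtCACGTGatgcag
Lgmn: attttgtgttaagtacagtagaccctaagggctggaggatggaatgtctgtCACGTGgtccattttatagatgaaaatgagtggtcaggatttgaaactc
Naglu: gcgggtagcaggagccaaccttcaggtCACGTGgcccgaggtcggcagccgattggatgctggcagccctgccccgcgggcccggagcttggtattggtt
Gla: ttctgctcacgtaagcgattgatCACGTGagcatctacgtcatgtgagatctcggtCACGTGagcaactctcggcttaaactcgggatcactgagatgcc
CACGTG, a palindrome that reads the same on both strands, occurred in 12 of the 35 windows (34.3%), beside 7.15% of all 32851 mouse windows in the table and 9.94% of the 12550 windows of tested genes. Lamp1 held 4 copies within 61 bases of its start. The longer TCACGTGA, which contains CACGTG and is also a palindrome, occurred in 6 windows (17.1%), beside 0.974% of all windows and 1.82% of those of tested genes. TCATGTGA, searched on both strands, occurred in 5 windows (14.3%), those of Ctss, Gla, Grn, Ppt1 and Tpp1, beside 0.986% and 0.821%. None of the 35 windows held TCACGTGA with a G before it and a C after it, a form present in 0.326% of all windows and 0.685% of those of tested genes. The LPS change in control mice had a median of -0.83 over the 12 members with CACGTG and of -0.75 over the 20 without. A match in these windows is a description of the letters and not a bound site.

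The comparison of succinate with control mice in unstimulated cells shares no library with the one in which Psap, Gpnmb and Ctsb were noted, and could be tested. No member was called, and neither was any other gene (0% of 14324, lowest adjusted p = 0.601), by edgeR's quasi-likelihood test. At an unadjusted p below 0.05 there were 5 members and 535 genes in all (3.73%), while DESeq2 called 1 gene in all, not a member, and limma-voom called 0. Estimates were below 0 for 36 of the 39 genes, with a median log2 fold change of -0.20, beside 0.006 for all tested genes. The 38 further lysosomal hydrolases and cofactors described below were similar, with 33 below 0 and a median of -0.19. The 22 autophagy genes had 11 below 0 and a median of 0.01. The libraries of succinate mice lay wholly below those of control mice for 7 members and wholly above for 1, while 7.92% of all genes did not overlap, 4.27% lying below and 3.65% above. Sums of monocyte, macrophage and B-cell markers did not overlap between these groups. The monocyte sums were 7321 to 10306 CPM in succinate mice and 10617 to 11185 CPM in control mice. The macrophage sums were 191 to 239 and 247 to 289 CPM in the same order, and the B-cell sums 19.4 to 25.1 and 9.2 to 17.3 CPM. Of the 12 monocyte markers, 10 had estimates below 0, with a median of -0.25. Of 5 tested macrophage markers, 2 were below 0, with a median of 0.12. The part of these markers was not tested.

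The 5 members with the smallest unadjusted p came from several roles. Atp6v0d2 had -0.75 ± 0.25, Gpnmb -0.55 ± 0.22, Cd68 -0.46 ± 0.19, Ctsd -0.32 ± 0.14 and Atp6v1a -0.26 ± 0.11 (log2, SE), each with an adjusted p of 0.958 in edgeR. Atp6v0d2 averaged 4.88 ± 0.883 CPM in unstimulated cells of succinate mice and 8.24 ± 0.956 CPM in those of control mice (SD, n = 3 each), and the 2 groups did not overlap. Without any low-count filter Gpnmb, one of the genes noted under LPS, was called at -0.58, as were 0.252% of all genes in that fit. Psap had -0.37 ± 0.18 and Ctsb -0.28 ± 0.16, while Npc1 had 0.00 ± 0.13. The unstimulated libraries of succinate mice were not alike: the members' median was -0.10 without replicate 2 of that group and -0.29 without replicate 3.

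With LPS, the contrast behind the choice of Psap, Gpnmb and Ctsb, the values of succinate mice stood below those of control mice for most members. The log2 difference of succinate over control mice was -1.05 ± 0.22 for Gpnmb, -0.83 ± 0.18 for Psap and -0.68 ± 0.16 for Ctsb. Over the 21 alternative settings it ran from -1.27 to -0.87, from -0.94 to -0.66 and from -0.80 to -0.55 in the same order. Beyond these 3, Mcoln3 stood at -1.18 ± 0.45, Cd68 at -0.88 ± 0.19, Lgmn at -0.84 ± 0.24 and Lipa at -0.75 ± 0.28. Ctsa and Ctss stood at -0.69, Npc1 at -0.63 ± 0.13 and Atp6v1a at -0.52 ± 0.11. Mcoln3 had 1.52 CPM or less in each LPS library. The Lipa groups overlapped, at 266 to 309 CPM in succinate mice and 277 to 793 CPM in control mice, where replicate 1 was the highest. In all, 34 of the 39 estimates were below 0, with a median of -0.36, beside -0.014 over all tested genes. The members were not alone in this among the other lysosomal lists described below. Below 0 were 32 of 38 further hydrolases and cofactors (median -0.21) and 24 of 28 further membrane proteins (-0.22). So were 12 of 13 other V-ATPase subunits (-0.24), 14 of 22 autophagy genes (-0.06) and 2 of 8 cathepsin inhibitors (0.28). The libraries of succinate mice lay wholly below those of control mice for 23 members, wholly above for Ppt1 and overlapped for 15, while 17.1% of all genes did not overlap, 10.2% lying below and 6.95% above.

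For some members the estimate with LPS was near 0. Ctsl stood at 0.15 ± 0.13, Ctsc at 0.08 ± 0.13, Ppt1 at 0.15 ± 0.13, Glb1 at 0.04 ± 0.12 and Scarb2 at 0.02 ± 0.12. Ctsl and Scarb2 had fallen strongly with LPS in each kind of mouse, and their LPS levels were close to each other in the 2 kinds, at 73.8 ± 4.79 CPM in succinate mice and 72.9 ± 5.04 CPM in control mice for Scarb2 (SD, n = 3 each). For the proton pump genes among the members all 6 estimates were below 0, from -0.52 for Atp6v1a to -0.09 for Atp6v0d1.

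No member was among the 9 genes (0.0628% of 14324) that edgeR called in this contrast, from which nothing is read here. The count moved with the processing. Called were 15 members with no low-count filter (2.43% of all genes in that fit), 9 with DESeq2 (2.42%), 6 with the library class as a covariate (1.33%), 6 without succinate LPS replicate 3 (1.34%), 2 without control LPS replicate 3 (0.533%) and 4 with the replicate block (0.538%). Gpnmb is among the called members in each of these settings. Psap and Ctsb are in the first 4, and in neither of the sets without control LPS replicate 3 and with the replicate block. Psap, Gpnmb and Ctsb were chosen for their values in this contrast. Several measures of the libraries moved with this contrast. Mitochondrially encoded genes held 1.22 to 1.26% of counts in LPS cells of succinate mice and 0.984 to 1.07% in LPS cells of control mice, and ribosomal protein genes held 3.95 to 4.14% and 3.27 to 3.38%. The 6 B-cell markers summed to 22.2 to 29.9 CPM in succinate mice and 12.1 to 19.4 CPM in control mice, and the 6 T and NK cell markers, 5 of them below 1 CPM in every library, to 31.6 to 41.8 and 18 to 30.5 CPM. The part of these in the differences was not tested. When libraries were scaled by their totals alone, the median of all genes moved to 0.107 and that of the members to -0.24.

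**Figure D4:**
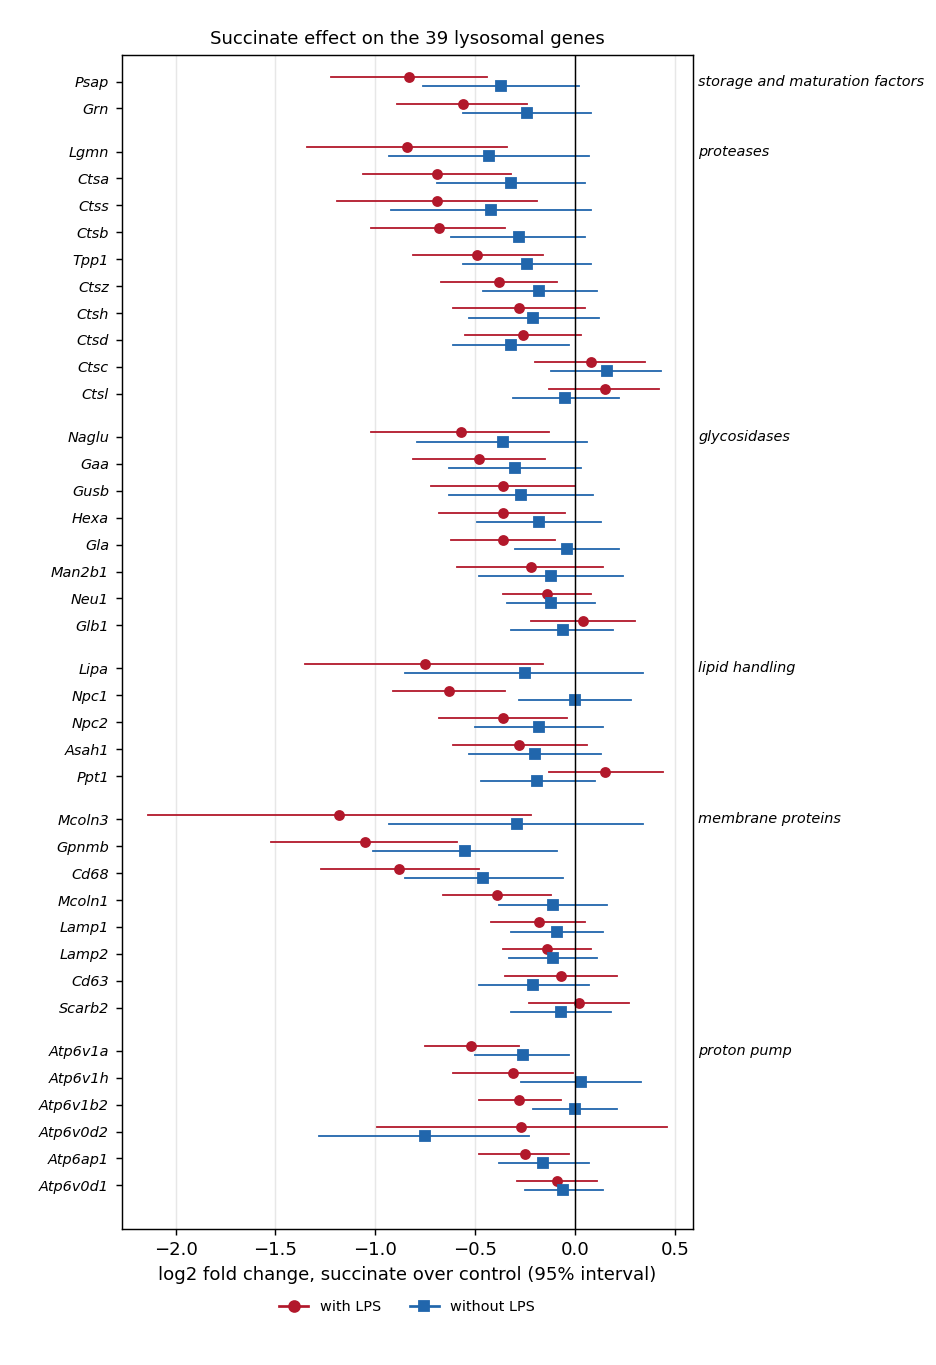
Log2 fold change of succinate over control mice for the 39 lysosomal genes, with LPS and without LPS, with 95% intervals. With LPS 34 estimates are below 0, from -1.18 for Mcoln3 upward, and without LPS 36 are below 0, from -0.75 for Atp6v0d2 upward.

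Other genes of lysosomal function, in lists drawn up by role, were read beside the members. With LPS 16.2% of all genes fell and 14.1% rose in succinate mice, and 14.8% fell and 15.3% rose in control mice. Of 38 further hydrolases and cofactors, 24 fell and 4 rose with LPS in succinate mice, and 22 fell and 4 rose in control mice, with medians of -0.72 and -0.58. The amidase Naaa averaged 17.5 ± 2.6 CPM in LPS cells of succinate mice, 16.9 ± 0.342 CPM in LPS cells of control mice, 63.7 ± 20.1 CPM in unstimulated cells of succinate mice and 64.6 ± 3.66 CPM in unstimulated cells of control mice (SD, n = 3 each). Its change was -1.86 ± 0.18 in succinate mice (adjusted p = 2.12e-06) and -1.94 ± 0.19 in control mice (adjusted p = 1.42e-06). Against this direction, the tartrate-resistant phosphatase Acp5 rose by 4.02 ± 0.36 in control mice (adjusted p = 6.73e-07), and Rnaset2b rose by 2.13 ± 0.22, which is uncertain because Rnaset2a is a near-identical copy.

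Of 28 tested membrane proteins and transporters outside the members, 12 fell and 4 rose in succinate mice, and 13 fell and 5 rose in control mice. The sugar phosphate exchanger Slc37a2 fell to 25.4 ± 4.77 CPM in LPS cells of control mice, against 355 ± 48 CPM in unstimulated cells of control mice (SD, n = 3 each; -3.81 ± 0.31, adjusted p = 3.17e-07). The sialic acid exporter Slc17a5 and the nucleoside transporter Slc29a3 fell by 1.55 and 1.21, and the peptide and histidine transporter Slc15a3 rose by 1.87. Few of the other V-ATPase subunits were called. In succinate mice 3 of 13 tested subunits fell and 1 rose, and over all genes 16.2% fell and 14.1% rose. In control mice 2 fell (Atp6v1c1 at -1.12 ± 0.13 and Atp6ap2 at -0.41 ± 0.11) and 2 rose (Atp6v1e1 at 0.53 ± 0.15 and Atp6v0b at 0.40 ± 0.12), and the median of the 13 was -0.06, against -0.73 for the 39 members. These shares are near the 14.8% of all genes that fell and the 15.3% that rose in control mice, so nothing is read from them.

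Of 8 tested inhibitors of cathepsins, 5 rose and none fell in each kind of mouse, with medians of 1.73 in succinate mice and 1.72 in control mice. Over all genes 14.1% rose in succinate mice and 15.3% in control mice. The 5 included genes of a few CPM, and the summed level of the 10 listed inhibitors overlapped between LPS and unstimulated cells, at 512 to 730 and 437 to 817 CPM in succinate mice and at 634 to 830 and 645 to 817 CPM in control mice. Cystatin C (Cst3) averaged 231 ± 13.4 CPM in LPS cells and 293 ± 10.7 CPM in unstimulated cells of control mice and did not pass (adjusted p = 0.124), and neither did cystatin B (Cstb), at 389 ± 113 and 390 ± 90 CPM (adjusted p = 0.995). Cst7, which encodes cystatin F, rose by 1.65 ± 0.19 in control mice (adjusted p = 7.55e-06) and Serpina3g by 3.83 ± 0.44. Stfa1 and Stfa2l1 rose to 5.55 ± 1.25 and 2.58 ± 0.44 CPM in LPS cells of control mice, against 1.58 ± 0.899 and 0.637 ± 0.359 CPM in unstimulated cells of control mice (SD, n = 3 each), and are uncertain because the stefin A family holds near-identical copies. Of 12 sorting receptors and adaptors, 3 fell in succinate mice, where 16.2% of all genes fell, and 2 fell in control mice, where 14.8% did, and nothing is read from these counts. The 2 were Igf2r, the mannose 6-phosphate receptor that brings enzymes to the lysosome, and the adaptor Gga2 (each -1.23).

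Among 22 MiT/TFE factors and genes of lysosomal nutrient sensing, 9 fell and 1 rose in succinate mice, and 6 fell and 1 rose in control mice. Over all genes 16.2% fell and 14.1% rose in succinate mice, and 14.8% fell and 15.3% rose in control mice. Nothing is read from the counts of this list. Tfeb fell to 54.1 ± 5.66 CPM in LPS cells of control mice, against 114 ± 11.6 CPM in unstimulated cells of control mice (SD, n = 3 each; -1.08 ± 0.17, adjusted p = 0.000197), and its relative Tfec rose to 152 ± 6.46 CPM, against 40 ± 3.7 CPM (1.92 ± 0.13, adjusted p = 3.63e-08). Pparg and Fnip2, listed here with nutrient sensing, fell by 3.47 and 1.39. Of 22 autophagy genes, 10 fell and 3 rose in succinate mice, and 10 fell and 2 rose in control mice. In control mice the cargo receptor Sqstm1 rose by 1.44 ± 0.18 and Optn by 1.13 ± 0.11, while Uvrag and Map1lc3b fell by 1.02 and 0.51. None of the tested genes of these lists was called with succinate in unstimulated cells.

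**Figure D5:**
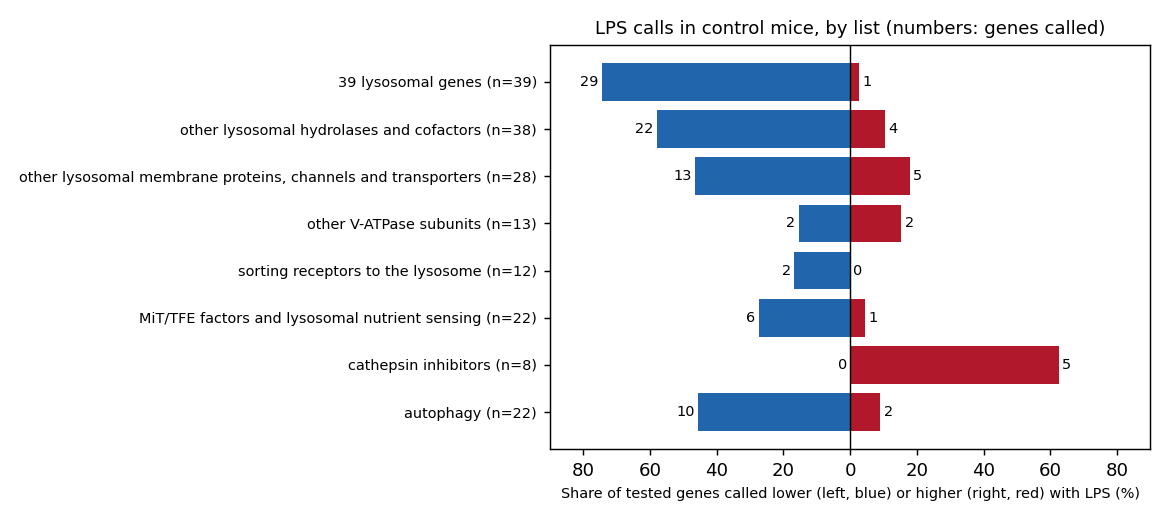
Share of tested genes (%) called lower (left) and higher (right) with LPS in control mice, for the 39 members and 7 other lysosomal lists, with the number of genes beside each bar. The members have 29 falls and 1 rise, and the cathepsin inhibitors have 5 rises and no fall.

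Likeness to Psap was measured by Pearson correlation of log2 CPM over the 12 libraries, which fall into LPS and unstimulated sets, so a gene that fell with LPS scores high. The closest protein-coding genes outside the members were Ctsk (0.995), Atp2b1 (0.994), Gnpda1 (0.993), Osbpl8 (0.992) and Uap1l1 (0.992). Among the members Gpnmb and Atp6v1a (0.993 each) and Lgmn (0.992) were closest, while Lipa (0.654), Ctsz (-0.096) and Ctsc (-0.848) were the least alike.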

How the data were processed

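The authors deposited whole-number read counts per gene for each of 12 libraries of cultured mouse monocytes, not normalised. Trim Galore and mm10 are named in the submitters' processing notes. Aligner, counting tool, annotation, strand handling and versions were not given in the sources used here, and reads of overlapping genes and near-identical copies could be assigned in ways not known here.

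Groups came from the sample titles. The test was the quasi-likelihood test of edgeR 4.0.16 in R 4.3.3. The filterByExpr step left 14324 genes, libraries were scaled by trimmed means (TMM), and all 12 libraries entered 1 model with a mean for each group, with a common biological coefficient of variation of 0.167. Calls were made at an adjusted p below 0.05 (Benjamini-Hochberg, all tested genes). CPM refer to counts after that scaling, and log2 CPM used a prior count of 2. For LPS in control mice, the median SE of log2 fold changes was 0.191 over all genes and 0.147 over the members. Libraries of 1 group correlated at 0.978 to 0.987, and none agreed within sampling noise (chi-square per degree of freedom 6.55 to 40.39), so each was kept as 1 sample. Exonic lengths and coordinates came from GENCODE M21 of GRCm38, in which 54495 gene identifiers matched. Promoter windows were searched for exact motifs. The code was tested on simulated data.

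The members and the gene lists were chosen with earlier results of these data known. In each other lysosomal list up to 4 genes called with LPS in control mice with the smallest p are named, except 1 gene that is not reported here, and Cst3, Cstb and the unstimulated contrast's 5 members at an unadjusted p below 0.05 were named after their values were seen. The genes nearest to Psap are the 5 protein-coding non-members with the highest correlation.

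Replicate numbers paired the unstimulated libraries of succinate and control mice: same-numbered libraries deviated together (r = 0.26, 0.116 and 0.198), and 6 of 6 were closest to their own number. With the numbers as a block, 0 members were called there. Alternatives were other scalings, filters and tools (DESeq2 1.42.0, limma-voom 3.58.1), only the groups compared, each library left out, the replicate block and the library class as a covariate.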

Additional observations from a re-analysis of the deposited data

How the results depend on the processing

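Of the 63 calls made for members with LPS in the 2 kinds of mice, 54 held in all 21 alternative settings and 0 reversed. The other 9, named in the text with LPS, were those of Asah1 and Lamp2 in both, of Gaa and Ppt1 in succinate mice and of Ctsb, Glb1 and Cd63 in control mice. The number of called members with LPS was 29 to 35 in succinate mice and 25 to 31 in control mice when each library was left out in turn, and 31 to 33 and 27 to 34 under the other settings. Between succinate and control mice with LPS, the contrast in which Psap, Gpnmb and Ctsb were noted, 0 members were called, against 15 with no low-count filter (2.43% of all genes in that fit), 9 with DESeq2 (2.42%), 6 with the library class as a covariate (1.33%) and 4 with the replicate block (0.538%), and 0 to 6 when a library was left out. The 6 came without succinate LPS replicate 3 (1.34%), and 2 were called without control LPS replicate 3 (0.533%). Gpnmb is in each of these sets and nothing is read from the counts. In unstimulated cells 1 member, Gpnmb, was called with no filter (0.252% of all genes), and 0 when any library was left out. The cause of these moves was not tested. The interaction called 0 members in every setting run, and the fit of only the groups compared was not run for it, being the same fit.

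In the other comparisons same-numbered libraries did not deviate together throughout. There r ran from -0.129 to 0.377, the highest for replicate 3 with LPS in succinate mice. For LPS in succinate mice, LPS in control mice and succinate with LPS, 2, 3 and 2 of 6 libraries were closest to their own number. The replicate block left the counts at 33 in succinate mice and 30 in control mice with LPS and at 0 for the interaction, and changed no call in unstimulated cells. Depth limits the LPS levels of Mcoln3 and Atp6v0d2, at 1.52 CPM or less in each LPS library.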
